A study of Mus musculus with 6 samples.

Results

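The collagen family was followed in mouse embryoid bodies, which are clumps of differentiating embryonic stem cells, with and without retinoic acid (RA) delivered from inside the clumps. Members were all probe sets, the groups of short probes that each read 1 transcript region, whose annotated gene symbol has the form Col, number, a, number. This gave 82 of the 45037 probe sets of the array, for 42 of 18193 named genes. They were grouped by collagen type into 11 fibrillar genes, 6 genes of the basement membrane type IV and 25 genes of other types. Bodies were made from the D3 stem cell line in medium without LIF under rotary culture and were sampled at 10 days. In the 3 control samples the bodies held microspheres with CellTracker Red dye, and in the 3 RA samples they held microspheres loaded with RA, the form of vitamin A that nuclear receptors bind. Both kinds of microsphere were coated with gelatin, and no source used here gives the RA dose or the microsphere to cell ratio of these samples. The labels name triplicates without saying that they were separate cultures, so the spread behind the p-values may be technical.

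Collagens are triple helices of alpha chains, each chain from its own gene. Fibrillar types build the tensile cables of connective tissue, and type IV builds the flat network of basement membranes, the sheets under epithelia and around vessels and muscle. In embryoid bodies, type IV is known as a product of primitive endoderm, which lays down a thick basement membrane, while types I, III and V are typical of mesenchymal cells.

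Each array gave 1 signal for a probe set. Values below are log2(signal + 16) after quantile normalization between arrays, changes are RA minus control on the same scale, each with its standard error (SE) from limma, and a gene was called when its limma p-value, adjusted over all 13608 genes tested, lay under 0.05. A gene was tested on its brightest probe set if the mean of that probe set lay above a log2 level of 5.74. Values of different genes come from different probes and are not compared with each other. The median deposited signal ran from 41.4 (control 3) to 65.5 (RA 3). RA 1 had by far the highest 3-prime to 5-prime ratio of Gapdh probes, which tracks RNA degradation, at 34.0 against 3.06 to 4.74 elsewhere. The same ratio for actin was higher on every RA array (7.42, 4.35 and 4.90) than on every control array (3.46, 3.35 and 4.24), and its part in the differences between groups was not tested. Of 8 epiblast and pluripotency markers 8 were higher with RA, and of 7 tested markers of heart and smooth muscle 6 were lower. The shares over all genes were 14.3% higher and 15.6% lower. The RA means of Myh6, Tnnt2 and Tagln lay below the filter level, and Tagln was named for that after its value was seen. The summed normalized signal of the heart markers was 13925 to 18724 in controls and 442 to 546 with RA, and that of the epiblast markers 1968 to 2262 in controls and 13139 to 13776 with RA. Each array measured whole bodies, in which fewer cells of a type and less RNA per cell cannot be told apart.

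Most collagens that changed were lower with RA. Of the 42 genes, 35 passed the signal filter, 13 of them were lower and 3 were higher. Over all genes tested, 15.6% were lower and 14.3% higher. A called fall of at least 1 on the log2 scale was found for 12 of the 35 tested collagens, against 4.93% of all genes. A called rise of that size was found for 0 collagens, against 3.04% of all genes. The median change of the 35 collagens was -0.61, and that of all genes 0.01. The falls comprised types I, III and V, chains of types VI, IX, XIV, XVIII and XXVI, and the X-linked type IV chains. The rises were type II and the type IV pair Col4a1 and Col4a2. Without RA 1 and control 3, the arrays with the highest Gapdh ratio and the lowest median signal, 15 collagens were lower and 3 higher.

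**Figure D1:**
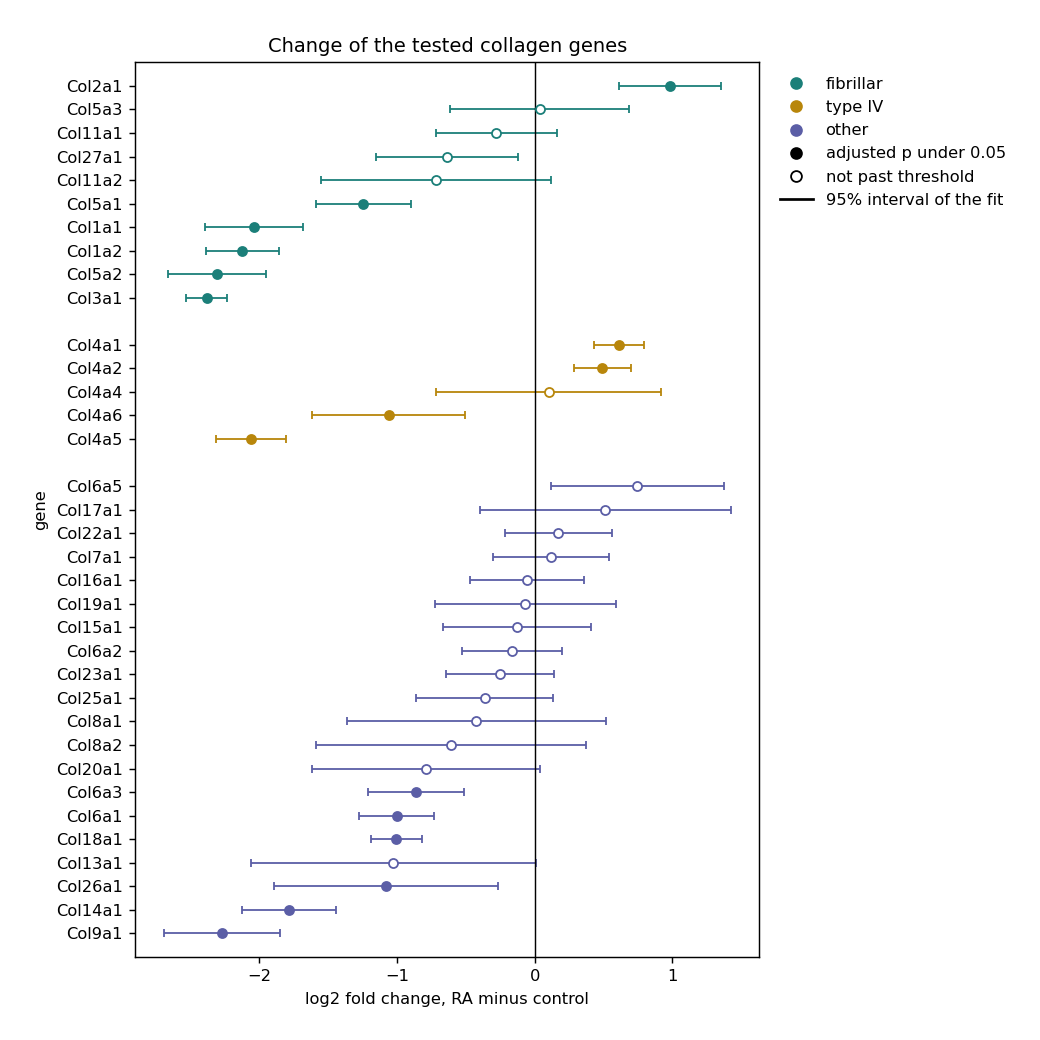
Log2 fold change (RA minus control, x axis) of each of the 35 tested collagen genes, by class, with the 95% interval of the limma fit; filled points passed the adjusted threshold. The 13 falls run from Col3a1 at -2.38 to Col6a3 at -0.86, and the 3 rises are Col2a1, Col4a1 and Col4a2.

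Some collagen genes lie next to each other, and the type IV genes lie in head-to-head pairs that start close together on opposite strands. The promoters of both called pairs are shown because the chains of a pair moved together and the pairs moved in opposite directions. All sequences are RefSeq promoter windows of the GRCm38.p6 build, from 250 bases before to 50 after the gene's start, written 5′ to 3′ on the gene's own strand. Capitals mark the TATA box letters TATAAA, the CCAAT box and the GC box letters GGGCGG, each on either strand. Col4a1 (chr8:11312777-11313076, minus strand) and Col4a2 (chr8:11312555-11312854, plus strand) have starts 21 bases apart, so their transcripts overlap at the ends and the windows share 78 bases.
Col4a1: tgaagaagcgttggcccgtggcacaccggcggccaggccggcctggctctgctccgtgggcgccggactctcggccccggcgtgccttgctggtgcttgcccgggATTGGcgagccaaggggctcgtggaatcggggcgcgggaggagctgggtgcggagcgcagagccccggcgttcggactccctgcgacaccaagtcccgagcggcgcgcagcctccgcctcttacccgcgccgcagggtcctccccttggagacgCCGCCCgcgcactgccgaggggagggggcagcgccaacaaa
Col4a2: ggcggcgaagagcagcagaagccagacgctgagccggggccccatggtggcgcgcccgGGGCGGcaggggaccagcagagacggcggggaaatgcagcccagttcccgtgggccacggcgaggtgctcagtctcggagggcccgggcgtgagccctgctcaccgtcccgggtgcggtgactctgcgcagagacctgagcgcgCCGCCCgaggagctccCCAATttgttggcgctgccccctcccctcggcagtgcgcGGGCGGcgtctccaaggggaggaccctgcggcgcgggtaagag
Col4a6 (chrX:141474027-141474326, minus strand) and Col4a5 (chrX:141475169-141475468, plus strand) have starts 1343 bases apart.
Col4a5: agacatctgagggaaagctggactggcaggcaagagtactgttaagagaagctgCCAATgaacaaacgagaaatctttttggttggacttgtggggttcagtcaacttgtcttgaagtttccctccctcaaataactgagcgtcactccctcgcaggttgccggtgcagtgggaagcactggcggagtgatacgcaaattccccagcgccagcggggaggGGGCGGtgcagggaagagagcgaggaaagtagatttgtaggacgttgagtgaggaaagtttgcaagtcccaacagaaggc
Col4a6: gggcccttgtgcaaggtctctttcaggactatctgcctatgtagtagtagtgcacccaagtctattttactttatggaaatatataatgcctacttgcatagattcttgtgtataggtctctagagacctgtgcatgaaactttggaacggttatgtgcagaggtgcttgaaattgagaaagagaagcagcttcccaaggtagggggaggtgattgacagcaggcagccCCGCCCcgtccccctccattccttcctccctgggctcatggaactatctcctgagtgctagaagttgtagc
The Col4a1 and Col4a2 windows had 74% and 73.7% G or C, and those of Col4a5 and Col4a6 had 52.7% and 48.3%. The windows of Col1a2 (chr6:4505368-4505667, plus strand) and Col3a1 (chr1:45311288-45311587, plus strand) stand for the fibrillar genes that fell. They differed in make-up, with 61% G or C in Col1a2 and 37.7% in Col3a1.
Col1a2: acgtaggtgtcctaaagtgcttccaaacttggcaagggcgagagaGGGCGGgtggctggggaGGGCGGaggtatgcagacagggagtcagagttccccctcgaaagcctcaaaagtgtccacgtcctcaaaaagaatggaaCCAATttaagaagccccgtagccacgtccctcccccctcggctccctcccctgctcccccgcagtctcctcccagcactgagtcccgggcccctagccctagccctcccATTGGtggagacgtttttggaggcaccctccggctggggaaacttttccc
Col3a1: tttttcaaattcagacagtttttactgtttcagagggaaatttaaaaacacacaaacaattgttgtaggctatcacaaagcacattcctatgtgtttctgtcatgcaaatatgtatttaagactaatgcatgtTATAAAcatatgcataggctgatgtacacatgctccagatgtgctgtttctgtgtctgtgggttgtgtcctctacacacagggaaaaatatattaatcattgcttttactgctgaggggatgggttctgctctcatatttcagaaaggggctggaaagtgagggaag

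Of the 42 collagen genes, 33 had a window in the RefSeq promoters. All windows with a collagen symbol were searched, on the array or not. GGGCGG on either strand occurred in 23 of these 38 windows (60.5%), against 35.7% of all 32851 windows. CCAAT occurred in 34.2% against 37.4%, and TATAAA in 13.2% against 13.6%. The half-site of nuclear receptors, AGGTCA, searched on both strands, occurred in 8 collagen windows (21.1%), against 16.3% of all windows. In windows of collagens called lower, GGGCGG occurred in 5 of 11 (45.5%) and AGGTCA in 1 of 11 (9.09%). In those of collagens called higher, they occurred in 2 of 2 and 0 of 2. Direct repeats of AGGTCA with 2 or with 5 bases between them occurred in 0 collagen windows and in 3 of all windows each. Such matches describe letters in a short window and say nothing of binding.

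The largest falls of the family were those of Col3a1 and Col5a2, which are fibrillar, followed by Col9a1 of another class. Of 11 fibrillar genes 10 were tested, 5 were lower and 1 was higher, against 15.6% and 14.3% of all genes. The median change of the 10 was -0.98. Over the 10 tested genes, all RA arrays lay below all control arrays in 5 and above in 1, and the groups overlapped in 4. Over all genes, every RA array lay below every control array in 22.2% and above in 21.8%. The 6 fibrillar genes without overlap were the called ones. Calls and overlap rest on the same arrays, so the lack of overlap adds no support to the calls.

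Col3a1 encodes the chain of type III collagen, which forms fibrils in vessels and soft tissue. It measured 12.93, 13.01 and 12.90 in controls 1 to 3, and 10.51, 10.58 and 10.59 in RA samples 1 to 3. The SD within a group was 0.06 in controls and 0.04 with RA, far less than the gap between groups. The change was -2.38 ± 0.07 (SE), a fall of 5.22 times (limma adjusted p = 1.14e-09). Its second probe set gave -3.20 ± 0.10.

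Col1a1 and Col1a2 encode the chains of type I collagen, the main fibril of bone, skin and tendon. Col1a1 measured 10.00, 9.79 and 9.80 in controls and 8.06, 7.41 and 8.0 with RA. Col1a2 measured 10.37, 10.63 and 10.29 in controls and 8.12, 8.35 and 8.45 with RA. No RA array came within 1 log2 unit of a control array for either chain. Col1a1 was 4.11 times lower (-2.04 ± 0.16, limma adjusted p = 3.65e-06) and Col1a2 4.36 times lower (-2.13 ± 0.12, limma adjusted p = 2.26e-07). Col1a1 lies on chromosome 11, where 28.6% of tested genes were lower and the median change was -0.20, while Col1a2 lies on chromosome 6, where these values were 17.1% and 0.02. The part of the chromosome-wide shift in the Col1a1 value was not tested.

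Type V collagen is built into type I fibrils, starts their assembly and limits their thickness. Col5a1 measured 9.25, 9.30 and 9.26 in controls and 8.29, 7.63 and 8.16 with RA. Col5a2 measured 8.75, 8.96 and 8.68 in controls and 6.66, 6.54 and 6.28 with RA. Both were lower on every RA array, Col5a1 by 2.37 times (-1.24 ± 0.16, limma adjusted p = 0.000125) and Col5a2 by 4.95 times (-2.31 ± 0.16, limma adjusted p = 1.19e-06). Col5a2 is the neighbour of Col3a1 on chromosome 1. Col5a3, a less common chain of this type, had overlapping groups and a change of 0.04 ± 0.30.

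Col2a1, the chief collagen of cartilage, also made by notochord and embryonic epithelia, was the exception. It measured 7.31, 6.95 and 7.28 in controls and 7.96, 8.34 and 8.20 with RA. All RA arrays lay above all control arrays, and the rise was 0.98 ± 0.17, or 1.98 times (limma adjusted p = 0.00101). The type XI chains, which join type II in cartilage fibrils, had changes of -0.28 ± 0.20 (Col11a1) and -0.72 ± 0.38 (Col11a2) with overlapping groups. Of 9 tested cartilage markers, 0 were higher (also 0 at an unadjusted limma p under 0.05) and 3 were lower, namely Sox6, Hapln1 and Sox5. The shares over all genes were 14.3% higher and 15.6% lower. The Sox5 call was lost without scaling, with the mean of probe sets (-0.32) and where another of its probe sets became the brightest, without control 1 (-0.23) and without RA 1 and control 3 together (-0.38). With its probe set held it was kept in the last 2 fits (-0.98 and -1.20). Their summed normalized signal was 905 to 982 in controls and 601 to 632 with RA, and Sox9, the regulator of Col2a1 in cartilage, had a change of -0.16 ± 0.19. Their part in the Col2a1 value was not tested. Col27a1, a cartilage fibril collagen, had a change of -0.63 ± 0.23 (limma adjusted p = 0.0625). It passed without control 3 (-0.83), without RA 3 (-0.81) and with trimmed mean scaling.

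**Figure D2:**
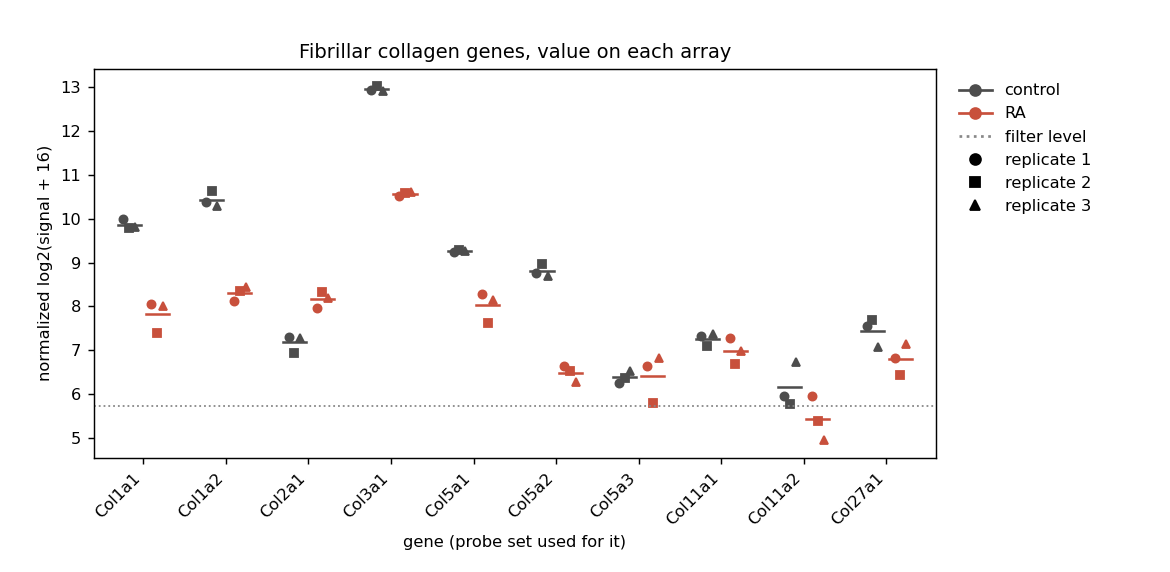
Normalized log2(signal + 16) of the 10 tested fibrillar genes on each array; horizontal bars are group means (n = 3) and the dotted line is the filter level of 5.74. Control and RA arrays are fully apart for Col1a1, Col1a2, Col3a1, Col5a1 and Col5a2 (RA lower) and for Col2a1 (RA higher).

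Markers of mesenchyme moved with the fibrillar genes. Of 9 tested markers 8 were lower and 0 higher (also 0 at an unadjusted limma p under 0.05), against 15.6% and 14.3% of all genes. The ninth, Dcn, had a change of -0.48 ± 0.32. The summed normalized signal of these markers was 17053 to 19572 in controls and 4283 to 4717 with RA. Postn is the matrix protein with the smallest p of the list. It still measured 8.0 ± 0.11 (SD, n = 3) with RA, above the filter level of 5.74. The part of mesenchymal cell number in the collagen falls was not tested.

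Type IV collagen split by locus. Of 6 genes 5 were tested, of which 2 were higher and 2 lower, with a median change of 0.10. The shares over all genes were 14.3% higher and 15.6% lower. The chains found in nearly all basement membranes, Col4a1 and Col4a2, rose. Col4a1 measured 11.47, 11.18 and 11.23 in controls and 11.93, 11.92 and 11.88 with RA. Col4a2 measured 10.21, 9.98 and 10.22 in controls and 10.54, 10.75 and 10.60 with RA. Neither gene had overlapping groups, although the changes were small. Col4a1 was 1.53 times higher (0.62 ± 0.08, limma adjusted p = 0.000192) and Col4a2 1.41 times higher (0.49 ± 0.09, limma adjusted p = 0.00210). The second probe set of Col4a1 gave 0.89 ± 0.15.

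The X-linked pair went the other way. Col4a5 and Col4a6 encode chains that join in the basement membranes of smooth muscle and several epithelia, and Col4a5 also serves in the kidney filter. Col4a5 measured 10.02, 10.10 and 9.78 in controls and 7.79, 7.93 and 7.99 with RA, a fall of 4.18 times (-2.06 ± 0.12, limma adjusted p = 2.17e-07). Its second probe set gave -1.10 ± 0.17. Col4a6 measured 7.45, 7.51 and 7.37 in controls and 6.01, 6.18 and 6.96 with RA. RA 3 lay nearest to the controls without reaching them, and the change was -1.06 ± 0.25 (limma adjusted p = 0.00802). Its second probe set, at -0.71 ± 0.24, did not pass (limma adjusted p = 0.0532). Without control 1, control 2 or RA 3 that second probe set became the brighter one and stood for the gene, and the call was lost (changes from -0.74 to -0.49). With the first probe set held, the call was kept in these fits, at -1.04, -1.03 and -1.35. Markers of endothelium, which rests on a basement membrane, were also lower. Of its tested markers, 5 of 6 were lower and 0 higher (also 0 at an unadjusted limma p under 0.05), against 15.6% and 14.3% of all genes. The summed normalized signal of the 6 was 1088 to 1258 in controls and 229 to 423 with RA. The RA means of Cldn5 and Tek lay below the filter level. The part of the endothelial markers and of the heart and smooth muscle markers in the Col4a5 and Col4a6 values was not tested. On chromosome X 19.3% of tested genes were lower, with a median change of 0.09.

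The pair on chromosome 1, Col4a3 and Col4a4, belongs to the kidney filter and other specialised basement membranes. Col4a4 lay at the filter level, with 6.10, 5.05 and 6.03 in controls, 5.97, 5.43 and 6.08 with RA and a change of 0.10 ± 0.37. Col4a3 did not pass the filter, with means of 5.35 in controls and 5.0 with RA on its brighter probe set.

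**Figure D3:**
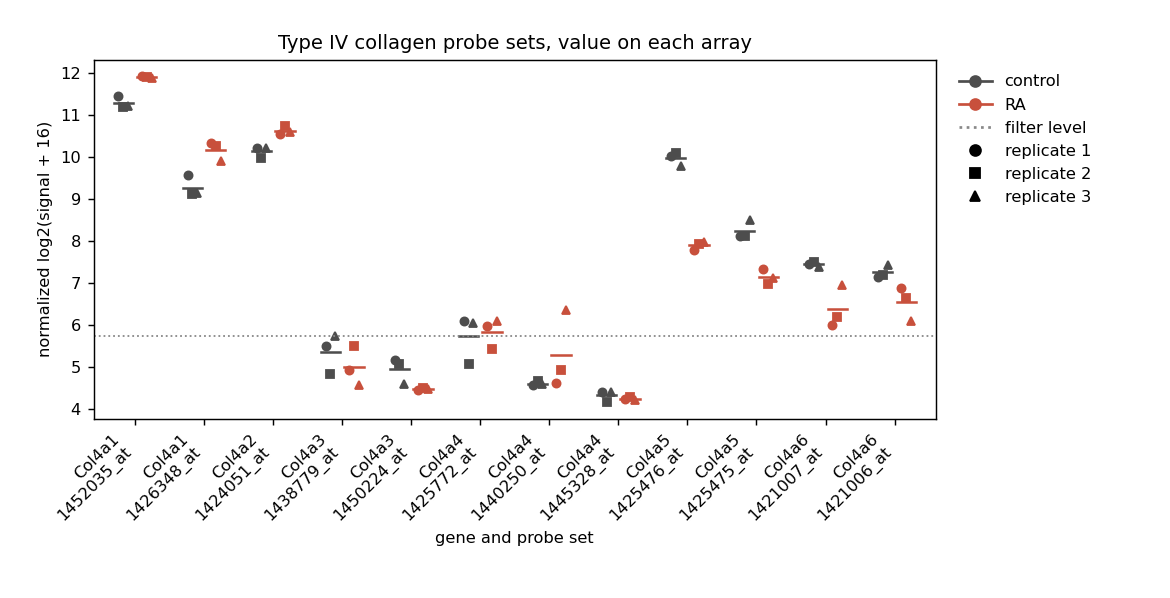
Normalized log2(signal + 16) of all 12 probe sets of the 6 type IV genes on each array, with group means (bars) and the filter level of 5.74 (dotted). Both Col4a1 probe sets and that of Col4a2 are higher on all RA arrays, both Col4a5 and both Col4a6 probe sets are lower, and those of Col4a3 and Col4a4 lie near or under the filter level.

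Of 17 listed genes whose products join type IV collagen in basement membranes, 15 were tested, 3 were higher and 2 lower, with a median change of 0.16. These shares are near those of all genes (14.3% higher and 15.6% lower). Laminin chains, the other network of the basement membrane, made up the rises. Lama1 was 3.33 times higher (1.74 ± 0.17), Lamc1 1.64 times (0.71 ± 0.14) and Lamb1 1.43 times (0.52 ± 0.13), with limma adjusted p of 1.80e-05, 0.00290 and 0.0117. These 3 chains form the laminin of the early embryo. The Lamb1 call was lost without control 1, without control 2 and without the trend in limma. Nid1, which links laminin to type IV collagen, was 2.10 times lower (-1.07 ± 0.09), and Sparc, a collagen-binding matrix protein encoded on chromosome 11, was 1.55 times lower (-0.63 ± 0.08), a call lost with the mean of its probe sets (-0.20). The limma adjusted p was 7.15e-06 for Nid1 and 0.000187 for Sparc. Without scaling between arrays, 3 were higher and 0 lower.

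Markers of parietal endoderm, the primitive endoderm layer that makes most of this matrix, moved with Col4a1 and Col4a2. Of 9 markers 6 were higher and 1 lower (Sparc), against 14.3% and 15.6% of all genes. Of the 9, 4 are also among the basement membrane genes above. The summed normalized signal of the 9 was 8486 to 9144 in controls and 9249 to 9643 with RA. Sparc had the highest signal in this sum, with means of 12.53 in controls and 11.90 with RA. The sum therefore mixes its fall with the rises. Srgn, a proteoglycan of this layer, had a change of 4.09 ± 0.27, while Plat and Thbd, the markers that did not pass and named for that after their values were seen, had changes of -0.14 ± 0.10 and 0.09 ± 0.24. Their part in the type IV values was not tested.

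Among collagens of other types, 20 of 25 genes were tested, 6 were lower and 0 were higher (1 at an unadjusted limma p under 0.05, Col6a5). The shares over all genes were 15.6% lower and 14.3% higher. The median change of the 20 was -0.39. Without scaling between arrays, 3 were lower and 1 was higher.

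Types IX and XIV belong to the collagens that sit on the surface of fibrils and link them to other matrix. Col9a1, whose type coats type II fibrils, measured 9.18, 9.50 and 8.79 in controls and 6.84, 7.15 and 6.67 with RA. It fell by 2.27 ± 0.19 on the log2 scale, or 4.83 times (limma adjusted p = 6.18e-06), with RA arrays far below the controls. Its neighbour Col19a1 had a change of -0.07 ± 0.30. Col14a1, found on type I fibrils, measured 8.54, 8.47 and 8.63 in controls and 6.93, 6.81 and 6.55 with RA. The groups lay over 1 log2 unit apart, and the fall was 3.44 times (-1.78 ± 0.16, limma adjusted p = 7.83e-06). Col9a1 and Col2a1, whose proteins meet in cartilage fibrils, thus moved in opposite directions. The other tested members of this class, Col16a1, Col19a1, Col20a1 and Col22a1, had changes from -0.79 to 0.17 and did not pass. Col20a1 passed without RA 3 (-1.29).

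Type VI collagen forms beaded filaments around cells. Col6a1 measured 8.58, 8.59 and 8.77 in controls and 7.59, 7.63 and 7.71 with RA. Col6a3 measured 8.56, 8.42 and 8.16 in controls and 7.74, 7.38 and 7.43 with RA. Neither overlapped, and Col6a1 was 2.00 times lower (-1.0 ± 0.13, limma adjusted p = 0.000114) and Col6a3 1.82 times lower (-0.86 ± 0.16, limma adjusted p = 0.00173). Col6a2, the neighbour of Col6a1 on chromosome 10 and the remaining chain of the usual trimer, measured 8.22, 8.05 and 8.26 in controls and 7.82, 7.86 and 8.37 with RA. RA 3 lay above all controls, and the change was -0.16 ± 0.16 (limma adjusted p = 0.507). The second Col6a2 probe set gave -0.58 ± 0.21 and did not pass. Col6a5, a relative of Col6a3, measured 5.73, 6.05 and 5.81 in controls and 7.01, 6.67 and 6.17 with RA. Its groups did not overlap, but the change of 0.75 ± 0.29 missed the threshold (limma adjusted p = 0.0707) and passed without RA 3 (0.97) and without scaling (0.94). The Col6a3 call was lost without scaling (-0.65).

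Type XVIII collagen lies in basement membranes, and its end piece is released as endostatin. Col18a1 measured 10.47, 10.44 and 10.59 in controls and 9.50, 9.53 and 9.44 with RA. All RA arrays were lower, by 2.01 times on average (-1.01 ± 0.08, limma adjusted p = 5.32e-06), and the call was lost without scaling (-0.66). Its relative Col15a1 had overlapping groups and a change of -0.13 ± 0.24. Col26a1, a collagen described in testis and ovary, measured 6.94, 6.18 and 6.37 in controls and 6.14, 5.12 and 4.99 with RA. Its RA mean of 5.42 lay below the filter level, and the call (-1.08 ± 0.37, limma adjusted p = 0.0474) was lost without any single array except RA 1, with changes from -1.23 to -0.86 over these 5 fits. It was also lost without scaling and with no filter.

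The remaining tested collagens did not pass. The transmembrane types had changes of -1.03 ± 0.47 (Col13a1), 0.51 ± 0.42 (Col17a1, of the hemidesmosome), -0.25 ± 0.18 (Col23a1, brightest probe set) and -0.36 ± 0.23 (Col25a1). The other Col23a1 probe sets above the filter gave -0.72 ± 0.24 and -0.97 ± 0.32, with all RA arrays below all controls, and the mean of the probe sets passed (-0.65). Col23a1 lies on chromosome 11, where 28.6% of tested genes were lower and the median change was -0.20. The part of that shift in the Col23a1 values was not tested. Col13a1 was spread widely, at 7.35, 6.82 and 5.39 in controls, with an RA mean below the filter level, and passed without control 3 (-1.62). Col7a1, of the anchoring fibrils of skin, had a change of 0.12 ± 0.19, and the network collagens Col8a1 and Col8a2 had -0.42 ± 0.43 and -0.61 ± 0.45. The 95% intervals of the type VIII chains reach 0.94 and 0.98 to either side of these estimates, so they cover larger falls as well as rises. Those of Col13a1 and Col17a1 reach 1.04 and 0.91 to either side.

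The 7 genes that did not pass the filter were Col4a3, Col6a4, Col9a2, Col9a3, Col10a1, Col12a1 and Col24a1. Their 14 probe sets measured between 4.17 and 6.59 on single arrays. For Col9a3, another chain of type IX, 1 of 3 probe sets measured 5.15, 4.18 and 4.80 in controls and 6.58, 6.02 and 6.59 with RA. These groups did not overlap, and in a fit with no filter this probe set rose by 1.69 ± 0.32 (limma adjusted p = 0.00414). The other Col9a3 probe sets had overlapping groups. The remaining 6 genes did not pass in that fit, and the largest difference among them was Col6a4 at -0.98 ± 0.34 (limma adjusted p = 0.0737).

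Several genes had more than 1 probe set, which read different parts of a transcript. Of 55 collagen probe sets above the filter, tested each on its own, 22 were lower and 4 higher. Among all 27022 probe sets tested this way, 11.1% were lower and 11.3% higher. Of the 16 called genes 11 had several probe sets above the filter. In 10 of these every probe set was called in the same direction, the exception was Col4a6, and 0 had a probe set called in the opposite direction. Sizes differed between probe sets of a gene, as in Col3a1 and Col4a5 above. Col20a1, of the class on fibril surfaces, had probe sets at -0.79 ± 0.38 and 0.78 ± 0.37, neither of which passed. The only Col26a1 probe set above the filter did not pass when tested among all probe sets (limma adjusted p = 0.0592). The other Col26a1 probe set lay under the filter, with means of 4.59 in controls and 4.75 with RA.

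**Figure D4:**
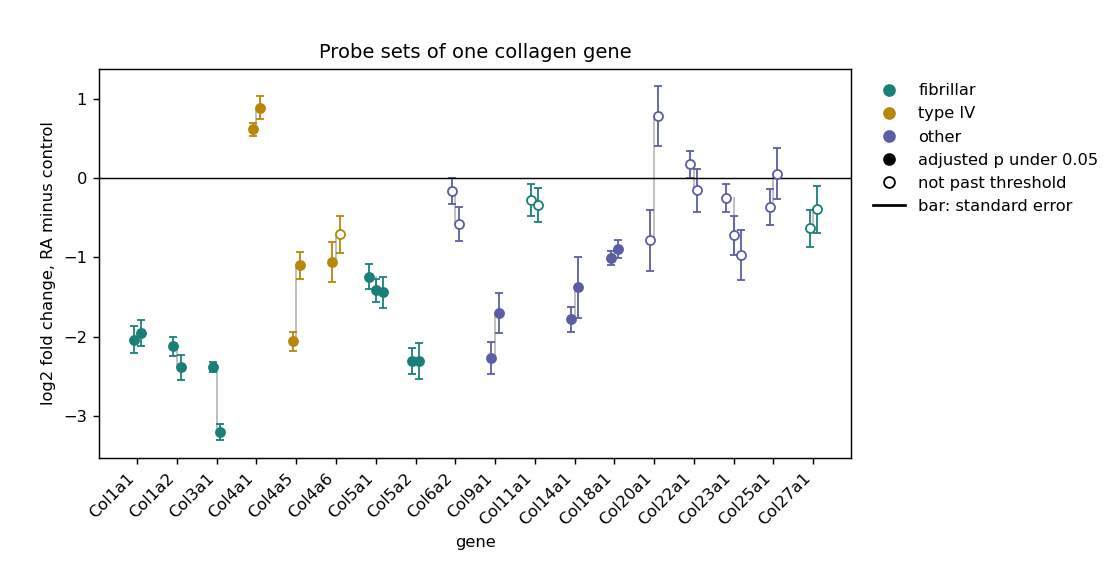
Log2 fold change (RA minus control, y axis) of every probe set above the filter for the 18 collagen genes that have more than 1, with the SE as bars; filled points passed the adjusted threshold. Probe sets of called genes share a direction, and Col3a1 and Col4a5 show the widest gaps among them.

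Chains that share a trimer or a locus were also set against each other within arrays. The log2 difference between partner chains was compared between groups in 7 pairs with both chains above the filter, by a two-sided exact permutation test whose smallest possible p with 3 against 3 arrays is 0.1. Col5a1 minus Col5a2 was 0.47 ± 0.12 (SD, n = 3) in controls and 1.53 ± 0.40 with RA, a shift of 1.06 (exact permutation p = 0.1, adjusted p = 0.233 over 7 pairs). Col4a5 minus Col4a6 shifted by -1.0, from 2.52 ± 0.10 to 1.52 ± 0.43, and Col6a1 minus Col6a2 by -0.84, from 0.47 ± 0.10 to -0.37 ± 0.25 (SD, n = 3, exact permutation p = 0.1 and adjusted p = 0.233 for each). In these 3 pairs the groups did not overlap, and none passed after adjustment. The shift of Col5a1 minus Col5a2 lay between 0.87 and 1.07, without overlap, over all 6 combinations of their probe sets. Those of the other pairs depended on the probe set. With the second Col4a5 probe set the shift against Col4a6 was -0.04 or -0.39, and with the second Col6a2 probe set that of Col6a1 minus Col6a2 was -0.43, all with overlapping groups. Without RA 3 and with the probe sets held, Col4a5 minus Col4a6 shifted by -0.74. The shift was 0.09 for Col1a1 minus Col1a2 (exact permutation p = 0.9) and 0.12 for Col4a1 minus Col4a2 (exact permutation p = 0.4), both with overlapping groups.

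Enzymes and chaperones that fold and modify collagen chains in the cell were mostly lower. Of 21 listed genes 17 were tested, 9 were lower and 2 higher, with a median change of -0.60. The shares over all genes were 15.6% lower and 14.3% higher. P4ha2 and P4hb, lower and named after their values were seen, lie on chromosome 11, where 28.6% of tested genes were lower. Creb3l1, a transcription factor of collagen secretion in bone, was 4.19 times lower (-2.07 ± 0.17). Serpinh1, the collagen chaperone, was 1.66 times lower (-0.73 ± 0.07). P3h4, a partner of hydroxylases encoded on chromosome 11, was 2.46 times lower (-1.30 ± 0.15), and the isomerase Fkbp14 was 1.96 times lower (-0.97 ± 0.14). P4ha1, a catalytic subunit of the prolyl hydroxylase that stabilises the triple helix, was 2.07 times higher (1.05 ± 0.13). By limma, adjusted p was lowest for Creb3l1 (4.46e-06) and highest for Fkbp14 (0.000277) among these 5. The other rise was P3h2, a prolyl hydroxylase, at 0.98 ± 0.15, named after its value was seen. Without scaling between arrays 3 genes were lower and 2 higher, and the Serpinh1 call was lost (-0.33).

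Outside the cell, procollagen ends are cut off and fibrils are crosslinked. Of 13 listed genes 8 were tested, 3 were lower and 0 higher (also 0 at an unadjusted limma p under 0.05), with a median change of 0.08. The shares over all genes were 15.6% lower and 14.3% higher. Pcolce, which enhances cleavage of the procollagen end, measured 10.39 ± 0.09 in controls and 7.92 ± 0.17 with RA (SD, n = 3), 5.54 times lower (limma adjusted p = 3.67e-08). Loxl1, a crosslinking oxidase, was 2.67 times lower (-1.42 ± 0.20, limma adjusted p = 0.000279). Bmp1, the protease that Pcolce assists, was 1.84 times lower (-0.88 ± 0.22, limma adjusted p = 0.00996), a call lost without scaling, without RA 1 and control 3 together, and with the mean of its probe sets (-0.10). The oxidase Lox and the protease Adamts3 had changes of 0.74 ± 0.34 and 0.47 ± 0.28, and the control mean of Lox lay below the filter level.

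Small proteoglycans that bind fibrils were represented by 6 tested genes of 8, of which 1 was lower and 0 higher (1 at an unadjusted limma p under 0.05, Bgn). The share lower is near that of all genes, of which 15.6% were lower and 14.3% higher. Their median change was -0.35, and Lum and Dcn are also among the mesenchyme markers. Lum, or lumican, which regulates fibril spacing, was 15.7 times lower (-3.98 ± 0.17, limma adjusted p = 2.99e-08). Bgn, Fmod, Dcn and Prelp had changes of 0.47 ± 0.20, -0.45 ± 0.21, -0.48 ± 0.32 and -0.25 ± 0.32.

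Of 12 listed receptors for collagen 9 were tested, 1 was higher and 1 lower, with a median change of 0.08. These shares are near those of all genes (14.3% higher and 15.6% lower). Ddr1, a receptor kinase of epithelia that binds collagen, was 1.26 times higher (0.33 ± 0.09, limma adjusted p = 0.0154), and this call was lost without RA 3, without the trend and with the mean of probe sets. Mrc2, a chromosome 11 gene whose product takes up collagen, was 1.65 times lower (-0.72 ± 0.15, limma adjusted p = 0.00321), a call lost without scaling, where 1 receptor was higher and 0 lower. Adgrg6, Itga2 and Ddr2 had changes of -0.67 ± 0.25, 0.41 ± 0.23 and 0.62 ± 0.45. The control mean of Ddr2 lay below the filter level.

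**Figure D5:**
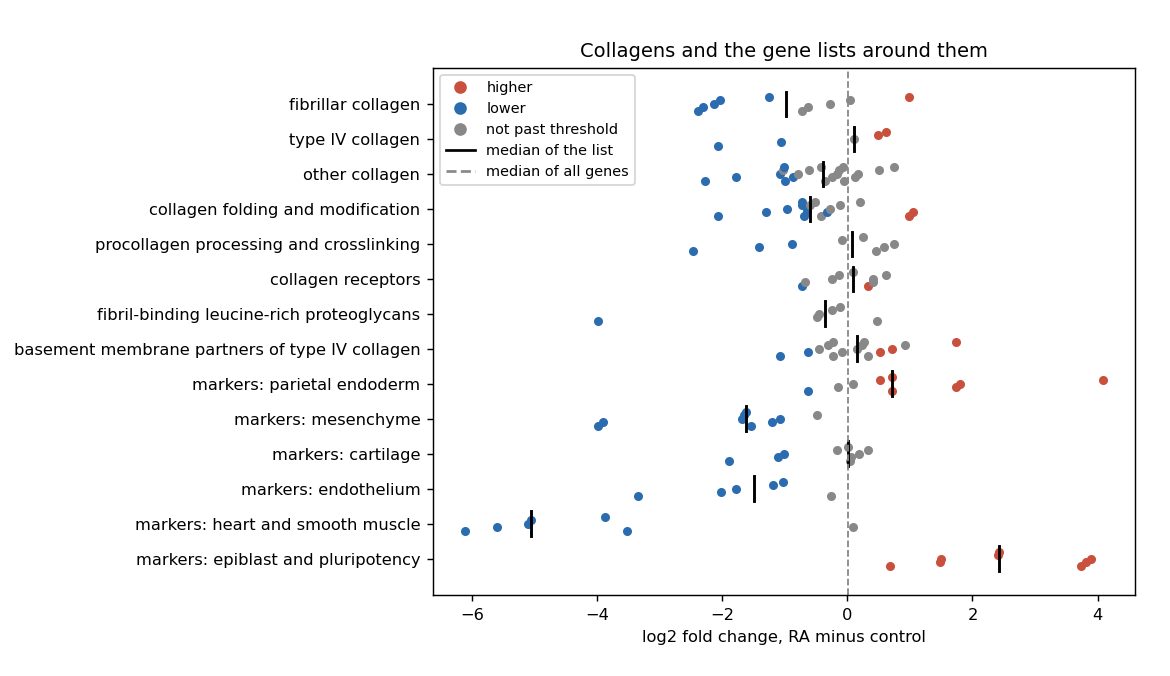
Log2 fold change (RA minus control, x axis) of each tested gene in the collagen classes, the lists of genes that act with collagens and the cell type markers; black ticks are list medians and the dashed line is the median of all genes (0.01). Medians are -0.98 for fibrillar collagens, 0.10 for type IV, -0.60 for folding genes and -1.62 for mesenchyme markers.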

How the data were processed

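The data are 6 Affymetrix mouse arrays, 3 control and 3 RA, grouped and numbered by the sample titles. The deposited values are a linear intensity per probe set, made by the authors with GCOS at default settings, per the labels; no source used here gives its version, and no detection calls were used. The arrays differed in trimmed mean signal (2% off each end, 108 to 191), so log2(intensity + 16) was quantile normalized. The pseudocount understates changes of dim genes. Array controls (64 probe sets) were dropped. Symbols are those of GEO's platform annotation (34945 probe sets with 1 symbol, 932 with several, 9160 with none; 34741 matched GRCm38.p6 RefSeq by gene identifier). No collagen symbol stood on a probe set with several symbols. Probe sets with a mean above the 40th percentile were kept, 27022 in all, and each gene took its brightest.

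RA was tested against control by limma 3.58.1, run in R 4.3.3 (trend, two-sided, no covariates, Benjamini-Hochberg), after a test on simulated data. The number of arrays limits the precision. All collagens were named; from each other list up to 5 tested members with the smallest p, at most 4 in 1 direction where both held a called member. Members and lists were chosen with earlier results of these data known. Alternatives covered scaling, pseudocount, filter, probe set choice, trend, the replicate number and left-out arrays; left-out arrays with each gene's probe set held, and chain pairs over all their probe sets, were added after seeing the data.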

Additional observations from a re-analysis of the deposited data

How the results depend on the processing

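Array number and signal over background limit these results: 7 collagens lay under the filter and some intervals, such as those of type VIII and Col13a1, were wide. Without scaling, the median change over all genes was 0.26 in place of 0.01, with 1750 genes higher and 651 lower, against 1949 and 2127; 10 collagens were then lower and 4 higher. In that setting 3 other collagens were lower and 1 higher, 3 folding genes were lower, and 0 receptors and 0 basement membrane partners were lower. With trimmed mean scaling, 2 receptors were lower. With no filter, 1 other collagen was higher (Col9a3). With the mean of probe sets, 0 receptors were higher, 1 basement membrane partner was lower, and 1 proteoglycan was higher and 2 lower. Without trend, 0 receptors were higher and 2 lower. Without RA 1 and control 3 together, 2 proteoglycans were lower.

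Leaving out each array in turn gave 11 to 14 collagens lower and 3 to 4 higher. Type IV genes lower ranged from 1 to 2 (1 without control 1, control 2 or RA 3, where another Col4a6 probe set became the brightest; 2 in each with probe sets held, an alternative chosen after seeing the data), and other collagens higher from 0 to 1 (1 without control 2, Col9a3, or RA 3, Col6a5). Receptors higher ranged from 0 to 1 (0 without RA 3) and lower from 1 to 2 (2 without control 2 or RA 2). With probe sets held and 1 array left out, 12 to 14 collagens were lower and 3 to 4 higher. Of 538 planned refits of single collagen genes over all alternatives, 15 lost a call, 10 gained one and 0 called values changed sign.

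The samples share only a replicate number: deviations of same-numbered arrays correlated at -0.09, -0.01 and -0.03 over genes. With the replicate number as a block, 13 collagens were lower and 3 higher, and 1949 of all genes were lower and 1775 higher.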
